A study of Homo sapiens with 5 samples.

Results

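Gene expression was compared between the library titled Differentiation and the library titled Nondifferentiation of SH-SY5Y (CRL-2266). This established human line came from a neuroblastoma, and retinoic acid can drive it towards a neuron-like state. For each gene symbol the deposited log2 value in Nondifferentiation was subtracted from that in Differentiation, and genes with the larger of the 2 values at or above 7.8 were kept, which left 8996 of 26364 symbols. FOXP3 at 7.802 was the lowest gene kept and PAAF1 at 7.796 the highest left out. Each side of the comparison is 1 library, so no difference has a replicate check and none is given a p-value. Here a gene is called higher or lower when the 2 libraries differed by at least 2-fold, a log2 difference of 1. Folds are differences of deposited log2 values.

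Further reference levels came from 3 siRNA libraries of the same line, 1 each, titled siControl for the control, siSTAU1 for the siRNA to STAU1 and siUPF1 for that to UPF1. All cells were grown in medium with 10% fetal bovine serum and 1% penicillin/streptomycin, and libraries were built from 500 ng of Trizol-extracted total RNA with a QuantSeq kit of Lexogen. The kit reads each polyadenylated transcript near its 3′ end, so a value is not meant to scale with the length of the gene. How well levels of different genes compare was not tested, and genes with shared 3′ ends or near-identical copies can share reads. The media labels list 50 µM retinoic acid for Nondifferentiation and Differentiation alike and for none of the siRNA libraries, and no label gives a duration, so the direction of the comparison rests on the titles. SH-SY5Y is 1 subclone of a tumour line, so the libraries share 1 genetic background. STAU1 and UPF1 are factors of mRNA decay, and the design text asks which transcripts rise both when they are depleted and in differentiation.

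Retinoic acid is a hormone made from vitamin A. It enters the nucleus with the help of cellular binding proteins and binds RAR receptors, which sit on DNA with RXR partners and switch on target genes, among them the enzymes that destroy retinoic acid. In neuroblastoma cells, which descend from the sympathetic lineage of the neural crest, it is used to slow division and to bring out neurites.

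The line matched its label in all 5 libraries. Of the noradrenergic markers PHOX2A, HAND2, GATA2, GATA3, ISL1, TH and DBH, none was listed at 0 in any library, and the lowest single value was 5.58 for TH in Differentiation. The values step in units that 1 read is worth, which gave an estimated 16700000 to 25500000 reads in genes per library, with Differentiation the deepest. The counting error of a log2 difference had a median of 0.07 over measured genes and 0.12 for genes near the floor in both libraries. From here on, 4 reference values in a row stand for siControl, siSTAU1, siUPF1 and Nondifferentiation in that order, and a gene at 0 is called listed at 0. STAU1, with values of 12.87, 11.34, 12.89 and 12.86, was at 12.86 in Differentiation, and UPF1, with values of 10.74, 10.64, 9.20 and 10.62, at 10.69.

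Of the 8996 measured genes 1923 differed by 2-fold (21.4%). Of these 937 were higher in Differentiation (10.4%) and 986 lower (11.0%). The median log2 difference over all measured genes was 0.02, with quartiles at -0.51 and 0.50. Of the 937 higher genes, 934 also lay above every one of the other 4 libraries, and of the 986 lower genes, 979 lay below every one, against 41.6% and 39.6% of all measured genes. A gap of 2-fold to every other library was seen for 621 genes above (6.90%) and 729 below (8.10%). For scale, siControl and Nondifferentiation differed 2-fold at 68 of 8566 genes (0.794%), 19 of them higher in siControl (0.222%) and 49 lower (0.572%). These shared references are not independent of the main comparison, since Nondifferentiation is one of the 4.

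The floor shapes such counts. A total of 692 genes were measured only through their Differentiation value and 695 only through their Nondifferentiation value, and a gene of either kind is more likely to pass 2-fold in that direction. Among the 7609 genes above the floor in both libraries, 542 were higher (7.12%) and 595 lower (7.82%). For most gene lists below, the members above the floor in both libraries are therefore also given. Their counts are to be read against these 7.12% and 7.82%. Counts over all measured members of a list are to be read against 10.4% higher and 11.0% lower.

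**Figure D1:**
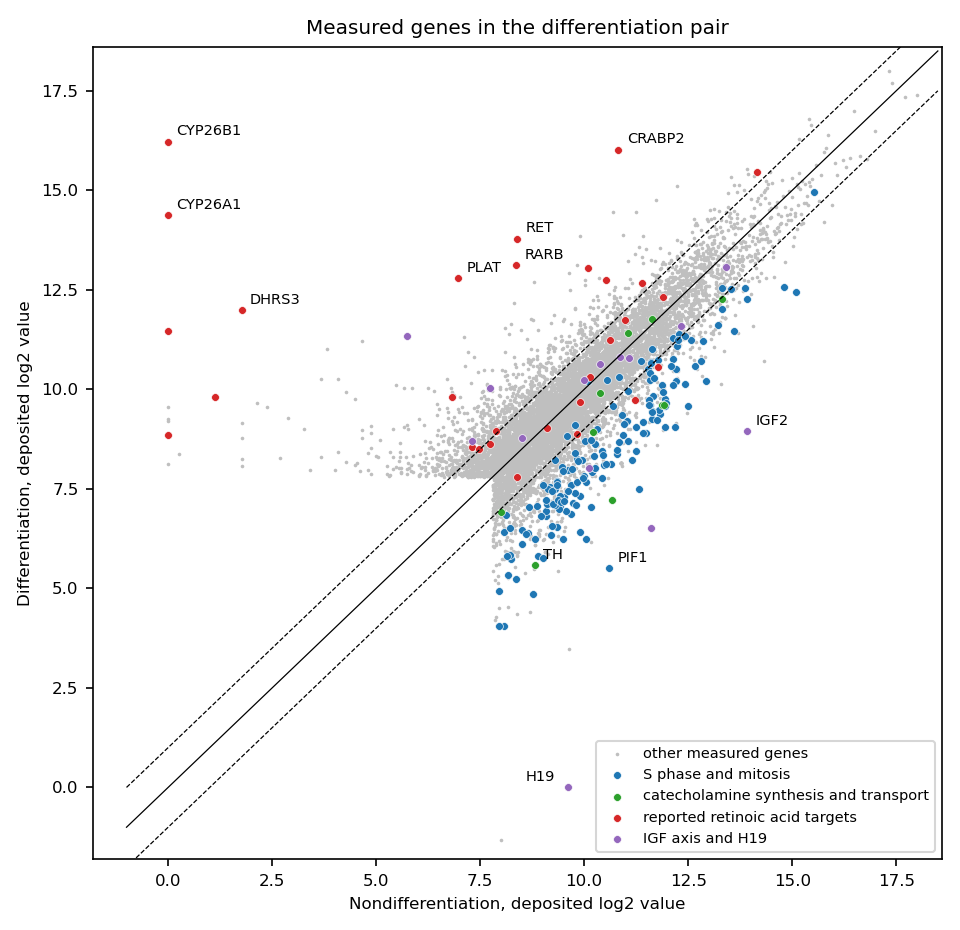
Deposited log2 values of the 8996 measured genes in Nondifferentiation (horizontal axis) and Differentiation (vertical axis), 1 point per gene, with 4 gene lists in colour; the solid line marks equal values and the dashed lines a 2-fold difference. Most genes of S phase and mitosis lie below the lower dashed line, and CYP26B1 and CYP26A1 stand at 16.22 and 14.38 in Differentiation while listed at 0 in Nondifferentiation.

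The highest differences among measured genes were those of CYP26B1 and CYP26A1, enzymes that break down retinoic acid. CYP26B1, a cytochrome that oxidises retinoic acid for removal, stood at 1.49, 0, 3.26 and 0 in the reference libraries and at 16.22 in Differentiation, the level of an abundant transcript. Its relative CYP26A1 stood at 0, 0, 2.20 and 0 and at 14.38. Neither gene came above a handful of reads in any library but Differentiation, and CYP26C1, the third member of the family, was listed at 0 in all 5. LRAT, which stores retinol as esters, was listed at 0 in Nondifferentiation and stood at 7.60 in Differentiation, just under the floor of 7.8.

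A carrier was higher from a substantial base. CRABP2, which delivers retinoic acid to the receptors, stood at 9.84, 10.20, 9.96 and 10.82 in the references and at 16.03 in Differentiation, a log2 difference of 5.20 or 36.8-fold. CRABP1, its paralogue with a role in retinoic acid turnover, stood at 5.93 in Nondifferentiation and 5.81 in Differentiation, so only the former was apart from its reference level. BCO2, which cleaves carotenoids, differed by 2.44. Synthesis showed no such gap. Of the dehydrogenases that make retinoic acid, ALDH1A2 was listed at 0 in all 5 libraries, ALDH1A1 was listed at 0 in both libraries of the pair, and ALDH1A3 stood at 7.36, 7.13, 6.54 and 6.99 against 6.31. RDH10, which makes retinaldehyde, stood at 5.71 and 5.79, and the related RDH11 at 10.99 and 11.00, while DHRS3, which runs the step backwards, stood at 1.49, 0, 1.26 and 1.77 against 11.98. Of the 39 genes of this list in the file, 14 were measured, 6 of them higher and 0 lower, with 4 measured only through Differentiation. Of the 10 above the floor in both libraries, 2 were higher and 0 lower, with a median log2 difference of 0.57.

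The genomic stretches below were chosen because they hold a spaced repeat that retinoic acid receptors are known to bind. The patterns searched were DR5, a direct repeat with 5 bases between its copies, and DR2, the same with 2 bases between them, on both strands. Each copy reads AGGTCA in the standard form, while AGTTCA counts as a variant, as do the words GGGTCA and, with both exchanges, GGTTCA. The search ran in RefSeq promoter windows of GRCh38.p14 that run from 250 bases before to 50 bases after a gene start. DR5 occurred in 31 of 35116 windows (0.0883%). Of 1338 windows of genes higher in Differentiation 3 held it (0.224%), and of 1147 windows of lower genes 0 did. DR2 occurred in 14 of all windows (0.0399%) and in 0 windows of higher and 0 of lower genes. Of the 51 windows of measured genes on the list of reported retinoic acid targets, 2 held DR5 and 0 held DR2. The 3 windows of higher genes with DR5 belong to CYP26A1, to RARB and to CFLAR, an inhibitor of caspase 8, which stood at 11.83, 11.80, 11.99 and 11.40 in the references and 13.34 in Differentiation. Capitals mark the repeat and the bases between its copies, on chr10:93073778-93073844 for CYP26A1 and chr3:25428185-25428251 for RARB, both on the plus strand.
CYP26A1: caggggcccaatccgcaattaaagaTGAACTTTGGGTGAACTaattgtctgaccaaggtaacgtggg
RARB: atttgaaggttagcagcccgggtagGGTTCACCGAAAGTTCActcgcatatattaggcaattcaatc
In CYP26A1 the repeat reads on the opposite strand. Its first base lies at position -90 from the gene start there and at -53 in RARB. Other measured genes with DR5 differed by less than 2-fold, namely PHF8 at 0.20 and PANK2 at -0.61.

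Among the receptors, RARB was the furthest apart. RARB, the receptor best known as its own target, stood at 7.803, 7.82, 7.75 and 8.36 in the references and 13.11 in Differentiation (4.75, counting error 0.08). RARA stood at 10.63, 10.83, 11.14 and 11.40 against 12.67 (1.27) and RARG at 8.64, 9.17, 8.99 and 9.12 against 10.27 (1.15). All 3 RAR genes were thus above every reference library, and RARB by far the most. Of the RXR partners, RXRB differed by 0.87, RXRA stood under the floor at 5.14 and 5.83, and RXRG was listed at 0 throughout. The coactivators NCOA7, NCOA1 and NCOA3 were higher, at 2.59, 1.23 and 1.07, and the corepressor NCOR1 differed by 0.29. RORB, an orphan receptor, stood at 8.27, 8.01, 7.91 and 7.72 against 4.92, so it is not among the measured genes of the pair. Of 23 measured receptors and cofactors, all above the floor in both libraries, 6 were higher and 0 lower, with a median of 0.34.

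A list of 63 genes reported as retinoic acid targets in other systems overlaps the lists above, with CYP26B1 on it, so its counts are not separate. It had 29 measured members, 18 higher and 2 lower. Of these, 11 were measured only through Differentiation. Of the 17 above the floor in both libraries, 8 were higher and 2 lower, with a median of 0.75. PLAT, tissue plasminogen activator, a protease of growing neurites, stood at 6.94, 7.43, 7.18 and 6.97 in the references and 12.79 in Differentiation, 56.6-fold above Nondifferentiation. TGM2, a crosslinking transglutaminase, was listed at 0 in the 3 siRNA libraries and stood at 1.14 in Nondifferentiation and 9.81 in Differentiation. CRYM, which binds thyroid hormone, stood at 0, 0, 0.26 and 0 against 11.47. PDGFRA, a growth factor receptor, differed by 2.99. TFAP2B and RAI14 were the 2 lower members, at -1.50 and -1.22. Several known targets were undetected: HOXB1, CDX2, STRA8 and OLIG2 were listed at 0 in Nondifferentiation and in Differentiation.

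Homeobox genes were unequal between clusters. HOXA3 stood at 4.63, 3.66, 3.41 and 4.28 against 8.18, and HOXC6, with the highest level of the family, at 10.29, 10.32, 10.60 and 10.72 against 12.30 (1.58). HOXD8 differed by 1.91, HOXC5 by 1.94 and HOXD9 by 1.24. The clusters take their segment order from 3′ to 5′, and at the 3′ end HOXD1 reached 2.20 and HOXD3 6.78, both below the floor, while at the 5′ end HOXD13, at 4.28 in Nondifferentiation, was listed at 0 in Differentiation, and HOXC13 stood at 3.41 and -1.32. HOXB2 and HOXB4 to HOXB9 were listed at 0 in all 5 libraries. Of 39 HOX genes 8 were measured, and of the 5 above the floor in both libraries 2 were higher and 0 lower.

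Both measured noncoding RNAs of the HOX clusters were higher. HOTAIR, from the HOXC cluster, stood at 12.38, 12.38, 12.66 and 11.49 against 13.53 (2.04), and HAGLR, from the HOXD cluster, at 7.83, 8.47, 8.41 and 7.35 against 10.81 (3.46). The sources used here do not say whether reads were counted by strand, so HOTAIR and HAGLR cannot be told apart from transcripts on the other strand. TALE proteins, which bind DNA together with HOX proteins, were all above the floor in both libraries where measured, and 4 of 9 were higher and 0 lower. MEIS3 stood at 9.41, 9.71, 10.31 and 10.20 against 12.05 and MEIS2 at 14.47, 14.19, 14.20 and 14.16 against 15.45 (1.29). Both lay above every reference, and MEIS2 by 0.98 above siControl.

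**Figure D2:**
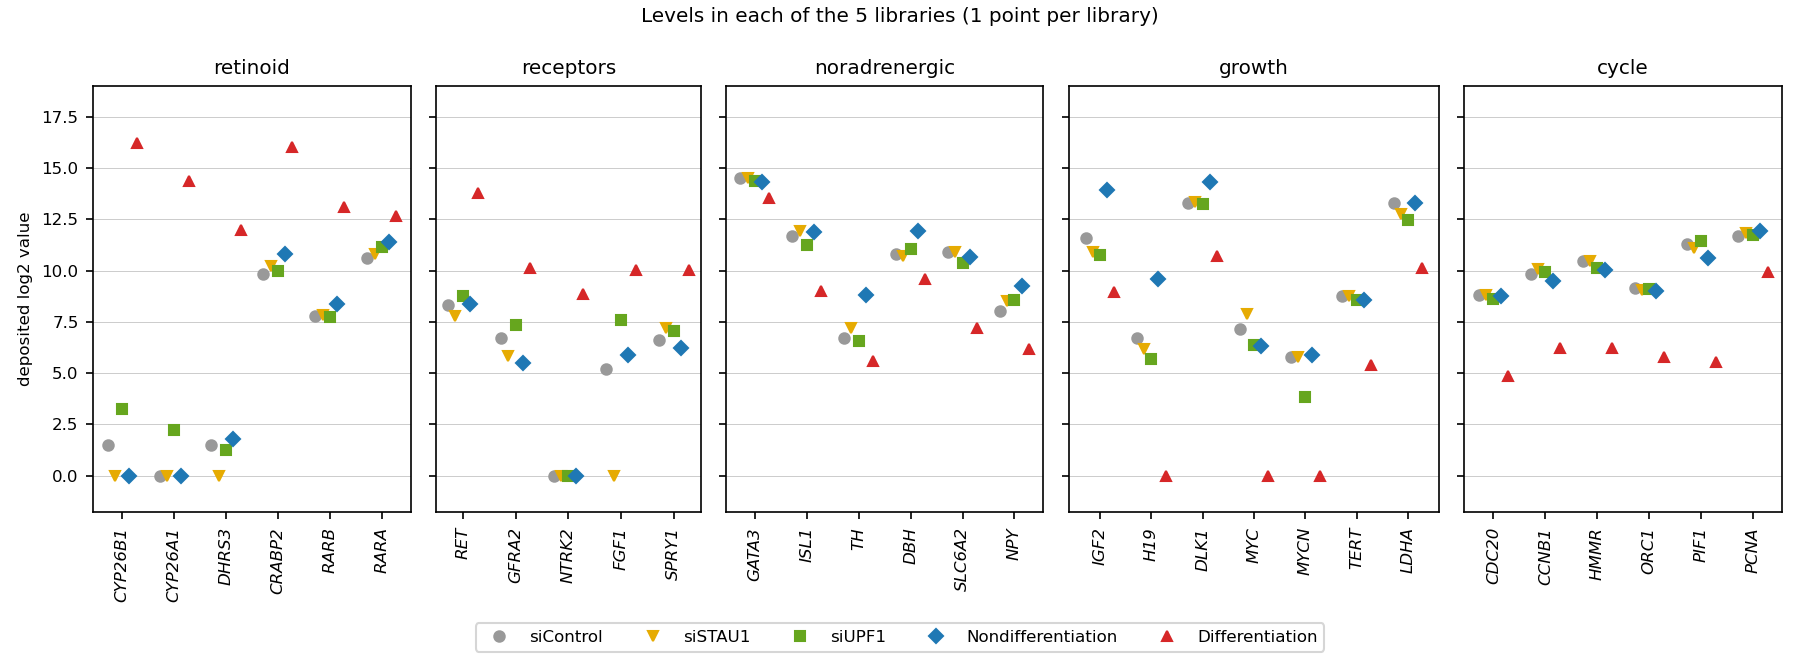
Deposited log2 values (vertical axis) of named genes in each of the 5 libraries, 1 point per library, grouped by role; a point at 0 is a gene listed at 0. Differentiation (red triangles) lies outside the range of the 4 reference libraries for the genes drawn, such as CRABP2 at 16.03, and IGF2, TH and DBH differ among the references too.

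Receptors for neuronal growth factors differed between relatives. RET, the signalling receptor for ligands of the GDNF family, stood at 8.31, 7.78, 8.77 and 8.38 in the references and 13.79 in Differentiation, 42.4-fold above Nondifferentiation. Of its co-receptors, GFRA2, which binds neurturin, stood at 6.69, 5.81, 7.36 and 5.49 against 10.10 (4.62), whereas GFRA1, which binds GDNF, was listed at 0 in Nondifferentiation and stood at 1.77, and GFRA3 stood at 3.68 and 2.68. Ligands of RET were low in both libraries, with GDNF listed at 0 in both libraries and NRTN, neurturin itself, at 5.31 and 5.19. Of the neurotrophin receptors, NTRK2 was listed at 0 in all 4 references and stood at 8.84, and NTRK3 was listed at 0 throughout. BDNF, the ligand of NTRK2, differed by -0.66, and the secreted factor MDK by 1.46. Of 10 measured members 4 were higher and 0 lower, and 3 of the 10 were measured only through Differentiation. Of the 7 above the floor in both libraries 2 were higher and 0 lower.

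Adhesion and guidance molecules of neurons were more often higher than lower. NCAM2 stood at 2.49, 3.51, 0.26 and 1.77 in the references and 9.15 in Differentiation, and its relative NCAM1 at 11.79, 11.78, 12.03 and 11.72 and 12.82 (1.10). CADM1, a synaptic adhesion molecule, differed by 2.96, L1CAM by 1.93 and the neurexin NRXN2 by 1.22. Its partners of the neuroligin family NLGN3 and NLGN1 differed by 2.999 and 2.24, and NLGN2 by 0.84. Of 24 measured adhesion genes, 14 were higher and 0 lower, with 13 measured only through Differentiation. Of the 11 above the floor in both libraries 4 were higher and 0 lower, with a median of 0.55.

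The clustered protocadherins, which give neurons a surface identity, formed 39 measured symbols, all 39 of them higher, with a median of 1.17. The alpha cluster and the gamma cluster each end in shared 3′ exons, and a 3′ library cannot tell their members apart, so these are not 39 separate measurements. PCDHA1 stood at 9.13, 9.14, 9.30 and 9.26 against 11.05 (1.79) and PCDHGA12 at 8.92, 8.93, 9.01 and 8.74 against 9.90 (1.15). Against siControl 20 of the 39 reached 2-fold. Protocadherins outside the clusters were PCDH7 at 4.34, PCDH17 at 4.03, PCDH9 at 2.15 and PCDH18 at 1.57 (0.67 against siControl).

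In axon guidance 13 of 32 measured genes were higher and 3 lower, and of the 24 above the floor in both libraries 9 were higher and 0 lower. Members of the B class of Eph receptors and ephrins were among the highest. EPHB3 stood at 3.46, 5.25, 4.43 and 2.38 against 9.55, its ligand EFNB2 at 9.25, 9.09, 8.75 and 8.801 against 12.71 (3.91) and EPHB2 at 2.16, while EPHB4 differed by 0.20. The A class ephrins EFNA1 and EFNA5 differed by 0.28 and 0.29. Among the other guidance systems, the ligand SLIT2 stood at 7.34, 8.22, 7.90 and 8.24 against 11.65 (3.41), its receptor ROBO1 differed by 1.24 (0.89 against siControl), and ROBO2 by 1.10 against Nondifferentiation but -0.062 against siControl. The plexins PLXNA4 and PLXNA2, which receive semaphorins, differed by 3.06 and 1.76. Semaphorins themselves split, with SEMA3B at 4.19 and SEMA6D at 1.62, and SEMA3A at -2.15 and SEMA5B at -4.01.

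Some genes of release and excitability were higher. SNAP25, a core protein of vesicle fusion, stood at 6.81, 6.74, 6.61 and 6.84 against 9.13 (2.29), and SYT4, a synaptotagmin of dense-core vesicles, at 7.16, 6.69, 7.48 and 6.38 against 9.96 (3.58). SYT1, the calcium sensor of fast release, differed by 0.39, VAMP2 by 0.99, and RIMS3, an active zone protein, by -1.74. Of 20 measured synaptic genes 6 were higher and 1 lower, and of the 14 above the floor in both libraries 2 were higher and 0 lower. Of 9 measured granins and neuropeptides 6 were higher and 1, NPY at -3.09, was lower. NPY is the peptide stored with noradrenaline. Of these 9, 4 were measured only through Differentiation, and of the 4 above the floor in both libraries 2 were higher and 0 lower. SCG2, a granin of secretory granules, stood at 8.15, 7.90, 8.12 and 8.62 against 11.26, while SCG3 differed by 2.23, CHGA by 1.60 and PAM, which amidates neuropeptides, by 1.11. The sodium channels SCN2A and SCN8A differed by 1.90 and 1.67, while SCN9A, the channel of peripheral sympathetic and sensory neurons, differed by -1.21 (-0.73 against siControl). Of 13 measured voltage-gated channels 5 were higher and 1 lower, and of the 9 above the floor in both libraries 3 were higher and 0 lower.

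Of 31 measured members of the cytoskeleton list 5 were higher and 4 lower, and of the 25 above the floor in both libraries 2 and 3. The shares over all measured genes were 10.4% and 11.0%, and over those above the floor in both libraries 7.12% and 7.82%. DCX, a microtubule protein of migrating neurons, stood at 7.04, 8.16, 6.51 and 7.51 against 9.44 (1.93), DCLK1 differed by 1.86 and DPYSL3 by 1.40. Of 9 measured alpha and beta tubulins, the subunits of the microtubule, 4 were lower and 0 higher, and against siControl 3 and 0. TUBB3, often used to stain neurons, stood at 12.70, 12.77, 12.65 and 13.61 against 12.49 (-1.11 against Nondifferentiation and -0.21 against siControl), and TUBA1A differed by -0.69, TUBB2B by -0.64 and TUBA1B by -1.63. MAP2, a dendritic protein, differed by -0.64, the growth cone protein GAP43 by 0.51, STMN2 by -0.22 and MAPT, the tau gene, by 0.20. VIM, the intermediate filament of precursors, differed by -1.25.

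Of 29 measured regulators of neuronal RNA 5 were higher and 2 lower, and of the 25 above the floor in both libraries 3 and 1. Over all measured genes 10.4% were higher and 11.0% lower. SRRM3, a splicing factor for microexons, stood at 5.45, 5.58, 5.77 and 5.34 against 8.42 (3.07), and the CELF family members CELF6, CELF5 and CELF3 differed by 3.60, 1.63 and 1.48. PTBP1, the splicing repressor of non-neuronal cells, differed by -0.96, just short of 2-fold, and its neuronal relative PTBP2 by -0.73. The stem cell protein MSI1 differed by -1.09 and MBNL3 by -1.59. The neuronal ELAVL4 and ELAVL3 differed by 0.64 and 0.45, against -0.995 for the ubiquitous ELAVL1.

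Against these, most measured genes of catecholamine synthesis and transport were lower. SLC6A2, the noradrenaline transporter, stood at 10.91, 10.90, 10.37 and 10.68 in the references and 7.21 in Differentiation (-3.47). DDC, the decarboxylase that makes dopamine, stood at 11.64, 11.75, 11.32 and 11.87 against 9.61 (-2.26). TH, the rate-limiting enzyme of catecholamine synthesis, stood at 6.69, 7.18, 6.58 and 8.82 against 5.58, so its difference was -3.23 against Nondifferentiation and -1.10 against siControl. DBH, the enzyme that turns dopamine into noradrenaline, stood at 10.79, 10.70, 11.06 and 11.91 against 9.60. For TH and DBH the Nondifferentiation library was itself above the siRNA libraries, and Differentiation lay below all 4. GCH1, which supplies the cofactor of TH, differed by -1.28 against Nondifferentiation and 0.13 against siControl, so its direction depends on the reference. Of 10 measured catecholamine genes 7 were lower and 0 higher, and of the 7 above the floor in both libraries 4 were lower.

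Among lineage factors, PHOX2A, which specifies the noradrenergic fate, differed by 0.57. GATA2, GATA3 and HAND2, which act in the same lineage, differed by -0.53, -0.76 and -0.86. Further members were lower by larger amounts. INSM2, a zinc finger factor of neuroendocrine cells, stood at 9.27, 9.18, 8.37 and 9.63 against 3.49, the lowest of the list at -6.14. ISL1 stood at 11.70, 11.91, 11.24 and 11.89 against 8.99 (-2.90), and SIX3, HAND1 and LMO1 differed by -2.81, -2.12 and -1.98. Of 22 measured factors 7 were lower and 0 higher, and of the 18 above the floor in both libraries 3 were lower and 0 higher. Of 32 measured neural crest and neurogenic factors 8 were higher and 5 lower, and of the 27 above the floor in both libraries 5 and 4. HLF, a factor of the circadian PAR bZIP family, stood at 0.26, 1.26, 1.26 and 0.26 against 8.38. In bulk RNA fewer cells of a type and less RNA per cell cannot be told apart.

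Genes of acetylcholine synthesis were at or near 0. CHAT and SLC5A7, which make acetylcholine and take up its precursor, were listed at 0 in all 5 libraries, and SLC18A3, the vesicular transporter, stood at 2.68 and 2.58. ACHE, which breaks acetylcholine down, stood at 4.63, 4.50, 3.26 and 5.09 against 6.54, under the floor. VIP, a peptide of cholinergic sympathetic neurons, stood at 3.46, 3.32, 5.29 and 4.81 against 8.39 (3.59). CHRM2, a muscarinic receptor, stood at 6.47, 7.70, 6.78 and 6.75 in the references and was listed at 0 in Differentiation.

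Matrix genes were mixed. Of 44 measured matrix and integrin genes 19 were higher and 4 lower, and 12 of the 44 were measured only through Differentiation. Of the 31 above the floor in both libraries 10 were higher and 3 lower, with a median of 0.29. TIMP3, an inhibitor of metalloproteases, stood at 6.75, 7.29, 6.62 and 8.32 against 12.17 (3.85), the metalloprotease MMP11 at 5.45, 5.75, 5.41 and 4.67 against 11.22, and the proteoglycan BGN at 8.43, 8.41, 8.50 and 8.48 against 11.48 (2.997). ADAMTS1, a secreted protease, differed by 3.22, and ITGB5, an integrin chain, by 2.69. FN1, fibronectin, stood at 15.70, 15.81, 15.70 and 15.45 against 16.63 (1.18). SERPINE2, an inhibitor of plasminogen activators, differed by -2.14, PLAUR, the urokinase receptor, by -2.03 and the proteoglycan SDC1 by -2.01. FBLN2 stood at 6.90, 6.42, 7.36 and 1.77 against 8.24, so only Nondifferentiation was low for it.

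Markers of the mesenchymal state, the other known state of neuroblastoma cells, went in both directions. Of 17 measured mesenchymal markers 3 were higher and 4 lower, and of the 13 above the floor in both libraries 2 and 1, with COL3A1 at 2.45 and PDGFRB at 2.38 and, on the other side, S100A4 at -1.93 (but -0.79 against siControl) and TAGLN at -1.65. The mesenchymal factors PRRX1, MEOX1 and MEOX2 were listed at 0 in both libraries, and YAP1 differed by 0.05. The summed level of the 38 markers was 16.03 in Nondifferentiation and 16.87 in Differentiation, against 16.10 to 16.20 in the siRNA libraries, and FN1 was its highest member in every library. The part of these cells in the matrix values was not tested. The summed level of 20 noradrenergic markers was 16.73 in Nondifferentiation and 16.57 in Differentiation, with 3 of 18 measured higher and 7 lower, and 1 and 5 of the 14 above the floor in both libraries. Markers of glia, epithelium, blood, muscle, endothelium and pluripotent cells had 1, 2, 2, 2, 1 and 1 measured members and those of hepatocytes 0. MUC1, an epithelial mucin, stood at 8.71, 8.78, 7.51 and 8.71 against 11.01 (2.29), and CD177, a neutrophil protein, was listed at 0 in all 4 references and stood at 9.20.

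In signalling pathways, single members stood far apart. FGF1, a growth factor that neurons make, stood at 5.19, 0, 7.58 and 5.86 against 10.03, and SPRY1, a feedback inhibitor of FGF and RET signalling, at 6.60, 7.19, 7.07 and 6.24 against 10.02 (3.79). Other members of that feedback were closer, with SPRY4 at 0.82, DUSP6 at 0.63 and SPRY2 at 0.06, and DUSP4 at -1.45 (but -0.27 against siControl). VEGFA differed by -1.46 and NRG1 by -1.49. Of 27 measured genes of the FGF, EGF and RAS list 7 were higher and 4 lower, and of the 19 above the floor in both libraries 1 was higher and 3 lower.

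In the WNT pathway several receptors and antagonists were higher and 1 gene, the nuclear partner TCF7, was lower. FZD7 and ROR1, receptors of WNT proteins, stood at 5.98, 6.31, 5.99 and 4.87 against 8.53 and at 6.13, 6.04, 5.51 and 5.09 against 8.73. The secreted antagonists DKK2 and DKK3 differed by 2.13 and 1.68 but DKK1 by -0.96, while PRICKLE1, of the planar polarity branch, differed by 2.47 and APC, part of the complex that degrades beta-catenin, by 1.82. Of the nuclear partners of beta-catenin, TCF7L2 differed by 1.37, LEF1 by -0.94 and TCF7 by -1.27. Of 30 measured WNT genes 10 were higher and 1 lower, and 8 of the 30 were measured only through Differentiation, and of the 22 above the floor in both libraries 4 were higher and 1 lower. In the TGF-beta and BMP list 9 of 29 were higher and 1 lower, and of the 25 above the floor in both libraries 5 and 1. Its leading members were the decoy receptor BAMBI at 2.42, the receptor BMPR1B at 2.20 and the latency protein LTBP3 at 2.15, with the target gene ID1 at -1.10. In the Notch list 3 of 16 were higher and 4 lower, and of the 14 above the floor in both libraries 3 and 3, with the receptor NOTCH2 at 2.09 and the ligand DLL3, the glycosyltransferase LFNG and the target HES6 at -1.04, -2.96 and -1.30. Against siControl ID1, DLL3 and HES6 stayed under 2-fold, at -0.41, -0.61 and -0.60. For comparison with the counts of these lists, 10.4% of all measured genes were higher and 11.0% lower.

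Several imprinted genes of the IGF2 and DLK1 loci were lower. IGF2, a fetal growth factor, stood at 11.57, 10.90, 10.77 and 13.92 in the references and 8.95 in Differentiation, and H19, the noncoding RNA beside it, at 6.73, 6.18, 5.70 and 9.60 and listed at 0. Nondifferentiation was above the siRNA libraries for both genes, and the log2 difference of IGF2 was -4.97 against Nondifferentiation and -2.62 against siControl. INS-IGF2 shares its sequence with IGF2 and is not a separate measurement. DLK1, a Notch-like membrane protein of neuroblasts, stood at 13.31, 13.36, 13.22 and 14.31 against 10.72 (-3.59), and RTL1, from the same imprinted cluster, at 4.63, 4.94, 4.69 and 5.18 and listed at 0. PEG10 stood at 13.37, 13.45, 12.98 and 14.06 against 11.60 (-2.46), while SGCE, which shares its imprinted promoter region, differed by 0.96. CDKN1C, an imprinted inhibitor of growth, stood at 4.98, 5.71, 4.57 and 5.27 and was also listed at 0 in Differentiation. Of the 14 measured imprinted genes outside the IGF2 locus, all above the floor in both libraries, 1 was higher and 2 lower, with MEST at 0.65, SNRPN at 0.27 and GNAS at 0.03.

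Among the binding proteins of the IGF axis, IGFBP6 and IGFBP5 went the other way, IGFBP3 depended on the reference and IGFBPL1 was lower. IGFBP6, which prefers IGF2 as its ligand, stood at 6.04, 5.34, 6.11 and 5.75 against 11.34 (5.59), 48.1-fold above Nondifferentiation and above all 4 references. IGFBP5 differed by 2.32 against Nondifferentiation and 0.89 against siControl. IGFBP3 stood at 9.61, 10.68, 11.02 and 7.31 against 8.71, which is above Nondifferentiation and below siControl. Of 14 measured genes of the IGF axis 3 were higher and 4 lower, and of the 9 above the floor in both libraries 0 and 2. IGFBPL1 differed by -2.09, and the receptors IGF1R, IGF2R and INSR by -0.06, 0.25 and 0.25.

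Most cell cycle genes were lower. Of 92 measured genes of G2 and mitosis 86 were lower and 0 higher, with a median of -2.22. All 92 lay below every one of the other 4 libraries, against 39.6% of all measured genes. Of the 51 above the floor in both libraries 45 were lower, with a median of -2.08. Of 70 measured genes of DNA replication and S phase 63 were lower and 0 higher, with a median of -1.79, and 69 lay below every other library. Of the 46 above the floor in both libraries 39 were lower, with a median of -1.46.

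By step, licensing of replication origins came first, with ORC1 at 9.13, 9.07, 9.10 and 9.01 against 5.77 (-3.24), CDC6 at -2.21 and CDT1 at -2.14. The helicase subunits MCM2 to MCM7 lay between -2.31 for MCM4 and -1.36 for MCM3, and MCM2 stood at 12.84, 12.87, 12.94 and 12.81 against 10.71. The sliding clamp PCNA stood at 11.71, 11.82, 11.71 and 11.91 against 9.94 (-1.96), and the nucleotide enzymes RRM2, TYMS and TK1 differed by -2.17, -2.20 and -2.15. In mitosis, CDK1 and its cyclin CCNB1 stood at 12.06, 11.96, 11.88 and 11.82 against 9.38 and at 9.83, 10.10, 9.91 and 9.50 against 6.24. CDC20, which activates the anaphase-promoting complex, stood at 8.81, 8.81, 8.60 and 8.78 against 4.85 (-3.93) and HMMR, a spindle protein, at 10.48, 10.46, 10.14 and 10.04 against 6.24 (-3.80). The kinases AURKA, AURKB and PLK1 differed by -2.89, -2.72 and -2.26. The smallest differences of the mitotic list were CKAP5 at -0.53 and STMN1, which neurons also express, at -0.58. PIF1, a DNA helicase, was the lowest of the S phase list, at 11.31, 11.08, 11.45 and 10.59 against 5.52 (-5.08). SLBP, which binds histone mRNA, was the one S phase gene above 0, at 0.11. FAM72A to FAM72D, near-identical copies that share reads, were all lower, with -4.01 the lowest. The lowest difference of the mitotic list is also -4.01, so any of these copies counted there are not separate measurements.

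Replication-dependent histone mRNAs have no poly(A) tail in dividing cells, and a kit that reads polyadenylated RNA catches few of them. Of 41 in the file 5 were measured, and 33 of the 36 unmeasured stood higher in Nondifferentiation. HIST1H4C stood at 14.39, 14.40, 14.35 and 14.37 against 12.78 (-1.58). HIST2H2BE, a histone gene whose mRNA can be polyadenylated, stood at 6.09, 6.18, 6.58 and 6.02 against 8.09 (2.08).

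Upstream regulators differed less. Of 33 measured G1 regulators 13 were lower and 0 higher, and of the 25 above the floor in both libraries 6 were lower. The activating factors E2F1 and E2F2 stood at 9.67, 9.40, 9.78 and 9.81 against 7.67 and 9.09, 8.84, 8.75 and 8.69 against 6.24, and E2F7 and E2F8, repressors of the same family, differed by -2.79 and -1.72. E2F4 and E2F5, which act in resting cells, differed by -0.35 and -0.85. RB1 differed by 0.14, its relative RBL1 by -1.04 and RBL2, the pocket protein of resting cells, by 0.77. CCND1 differed by -1.08, CDK2 by -1.14, the phosphatase CDC25A by -2.37, CDK4 by -0.48 and CDK6 by -0.07. Of the CDK inhibitors CDKN1B differed by 0.44, while CDKN1A stood at 9.83, 10.30, 10.77 and 11.66 against 10.89, a difference of -0.77 from Nondifferentiation and 1.06 from siControl.

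The promoters of cell cycle genes are shown because many hold known cell cycle motifs. The letters TTTGAA, the core of the cell cycle homology region, occurred on either strand in 56.4% of 101 windows of measured mitotic genes, against 10.5% of the 11294 windows of all measured genes and 15.2% of all 35116. CCAAT, which the NF-Y factor binds, occurred in 69.3% of them, against 35.2% and 34.6%, and both together in 43.6%, against 4.28% and 5.90%. The E2F words TTTCCCGC, TTTGGCGC or TTTCGCGC occurred in 35.9% of 78 windows of measured S phase genes, against 4.38% of windows of measured genes and 2.74% of all. Genes called higher in Differentiation had TTTGAA in 10.2% of windows and an E2F word in 1.49%, and genes called lower 16.3% and 9.42%. Capitals mark TTTGAA and CCAAT, in either orientation, for CDC20 (chr1:43358856-43358955, plus strand) and HMMR (chr5:163460512-163460631, plus strand), and E2F words for PCNA (chr20:5126649-5126706, minus strand) and MCM6 (chr2:135876497-135876620, minus strand).
CDC20: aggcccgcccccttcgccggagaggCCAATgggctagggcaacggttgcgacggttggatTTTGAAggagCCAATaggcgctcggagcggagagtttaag
HMMR: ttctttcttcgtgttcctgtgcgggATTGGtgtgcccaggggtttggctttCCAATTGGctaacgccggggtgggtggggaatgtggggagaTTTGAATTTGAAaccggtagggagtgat
PCNA: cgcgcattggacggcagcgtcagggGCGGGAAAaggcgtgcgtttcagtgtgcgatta
MCM6: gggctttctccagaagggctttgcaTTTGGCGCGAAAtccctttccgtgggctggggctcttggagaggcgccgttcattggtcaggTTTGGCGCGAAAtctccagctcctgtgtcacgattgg
In MCM6, which differed by -1.98, each capital run joins a word on one strand with an overlapping word on the other. Each of these matches describes letters in the window and not binding.

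The proto-oncogenes of the MYC network were listed at 0 in Differentiation. MYC stood at 7.15, 7.88, 6.38 and 6.34 in the references and was listed at 0 in Differentiation, and MYCN stood at 5.80, 5.77, 3.81 and 5.86 and was listed at 0. Both were under the floor in Nondifferentiation and so outside the counts. In the file 10 genes were at or above 5 in all 4 references and listed at 0 or below in Differentiation, MYC among them, and the reverse case, a gene at 0 or below in 1 reference library and at or above 5 in all others, occurred for FGF1 in siSTAU1 and for no other gene. The others of the 10 include the receptors CHRM2 and AGTR1, the collagen gene COL2A1 and DIO3, which inactivates thyroid hormone, at 6.50, 6.07, 6.75 and 5.27. COL2A1, AGTR1 and DIO3 are named here after their values were seen. Whether such entries at 0 reflect expression or the processing of the values was not tested. MAX, the partner of MYC, differed by 0.53, and MXD4, which competes with MYC for MAX, stood at 9.04, 9.25, 9.37 and 9.17 against 11.11 (1.94), while MXD3, a member tied to S phase, differed by -1.17. TERT, the catalytic subunit of telomerase and a MYC target, stood at 8.77, 8.74, 8.55 and 8.58 against 5.39 (-3.20), and ODC1, another, differed by -1.14. Of 16 measured members 7 were lower and 1 higher, and of the 14 above the floor in both libraries 5 and 1.

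Genes of ribosome assembly were often lower, while ribosomal protein genes had negative differences that mostly stayed under 2-fold. Of 58 measured genes of nucleolar ribosome assembly 32 were lower and 0 higher, and of the 47 above the floor in both libraries 24 were lower, with a median of -1.01. BYSL, EBNA1BP2 and NOP16, which assemble ribosomal subunits, differed by -1.93, -1.85 and -1.78, and NPM1, an abundant nucleolar protein, stood at 14.64, 14.25, 14.15 and 14.15 against 12.81 (-1.33). UBTF and RRN3, which start transcription by RNA polymerase I, differed by 0.13 and 0.04. Of 79 cytosolic ribosomal protein genes 8 were lower and 0 higher, a share near the 11.0% of all genes called lower. But all 79 had a negative difference, with a median of -0.62. Below every other library lay 78, against 39.6% of all measured genes. Their range was from -1.34 for RPL35 to -0.09 for RPL13A. Many ribosomal protein genes have processed pseudogenes that can take reads, so single members are uncertain.

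Chaperones had a negative median too. Of 30 measured heat shock genes, all above the floor in both libraries, 6 were lower and 0 higher, with a median of -0.69. The mitochondrial pair HSPD1 and HSPE1, which share a promoter, differed by -1.72 and -1.68, and measured subunits of the CCT ring, which folds actin and tubulin, ranged from -1.37 for TCP1 to -0.57 for CCT7. The stress-induced HSPA1B differed by 0.11 and the regulator HSF1 by -0.06. Of 31 measured proteasome subunits, all above the floor in both libraries, 3 were lower and 0 higher, with a median of -0.46. Of 73 measured genes of the respiratory chain 4 were lower and 0 higher (2 of the 68 above the floor in both libraries). Their median was -0.53, and 67 lay below every other library, against 39.6% of all measured genes. Of 64 mitochondrial ribosomal proteins 16 were lower and 0 higher, and of the 51 above the floor in both libraries 10 were lower. Of 20 tRNA synthetases 4 were lower and 0 higher (2 of the 18 above the floor in both libraries), led by VARS at -1.72. Over all measured members, the share of cytosolic ribosomal, respiratory and proteasome genes was not above the 11.0% of all genes called lower. The shares of heat shock genes, mitochondrial ribosomal proteins and tRNA synthetases were above it. Among members above the floor in both libraries, 8 of 78 cytosolic ribosomal, 2 of 68 respiratory and 3 of 31 proteasome genes were lower. Against the 7.82% of all such genes, the ribosomal and proteasome shares were a little above and the respiratory share below. For the cytosolic ribosomal, respiratory and proteasome lists the medians were below the 0.02 of all genes. In them 79 of 79, 69 of 73 and 30 of 31 members had a negative sign.

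**Figure D3:**
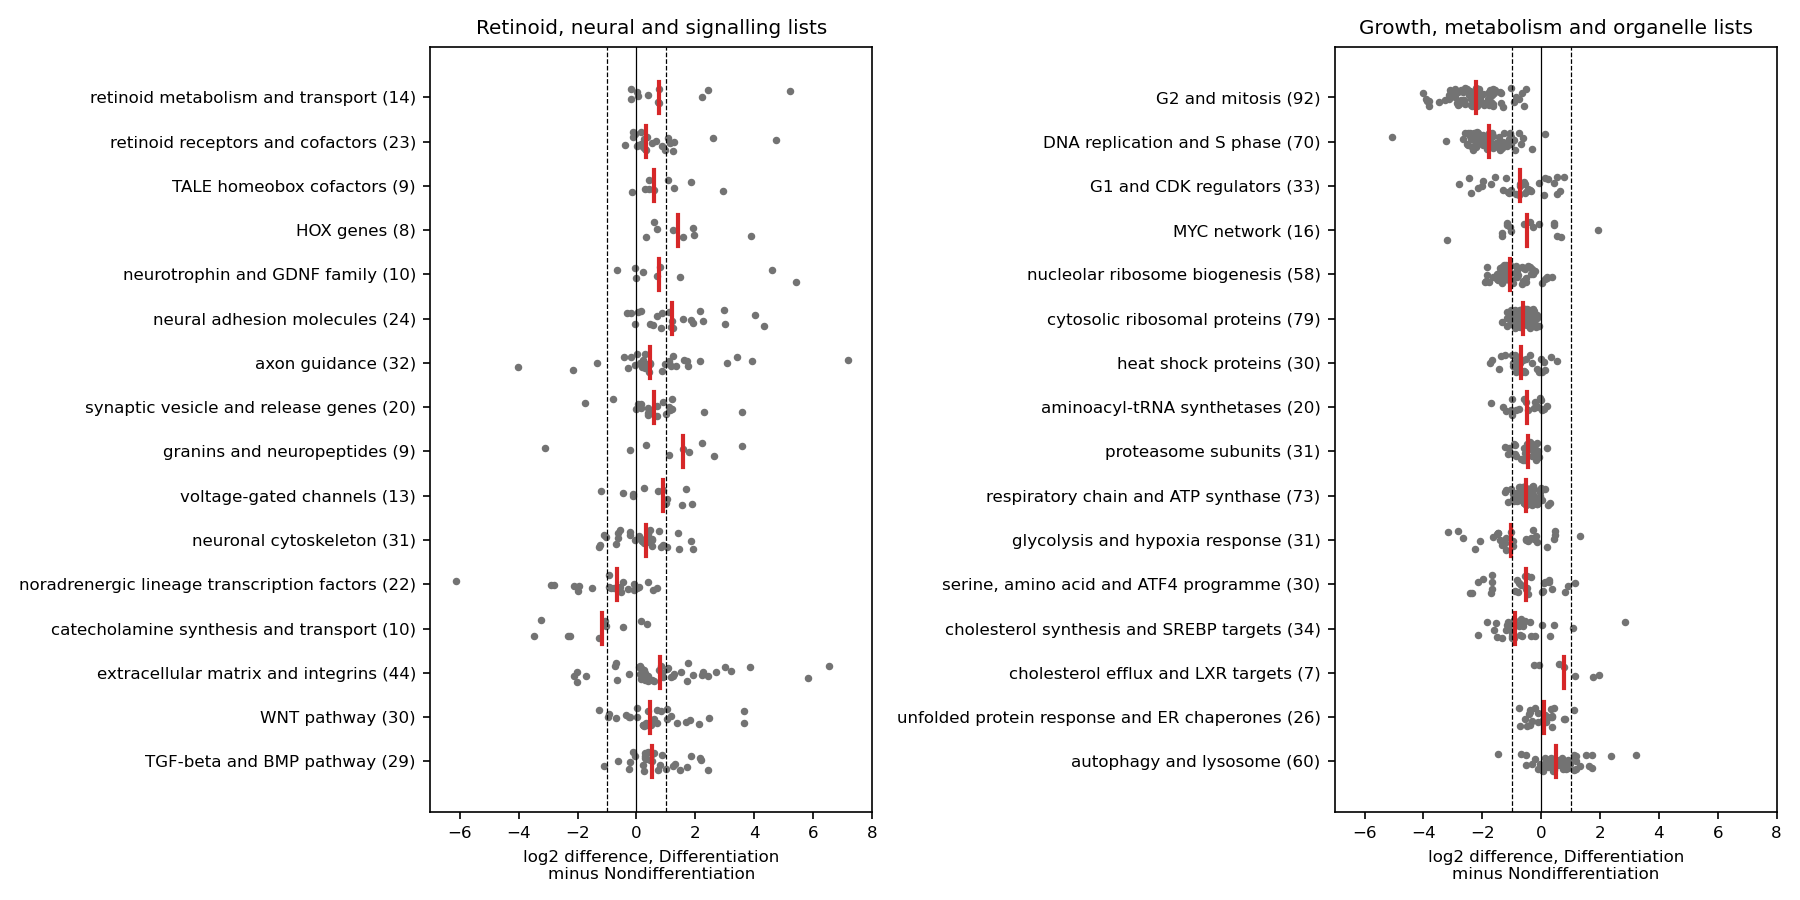
Log2 differences of measured members of 32 gene lists (horizontal axis, Differentiation minus Nondifferentiation), 1 grey point per gene, with the median of the measured members in red and the number measured in brackets; dashed lines mark 2-fold, and members with a value at or under 2 in either library enter the median but are not drawn. Mitotic genes centre on -2.22 and ribosomal proteins on -0.62 with little spread, while retinoid and neural lists have tails of genes far above 2-fold.

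Of 31 measured genes of glycolysis and the hypoxia response 16 were lower, 1 was higher and 14 were neither. SLC2A1, the main glucose transporter, stood at 7.85, 7.83, 7.27 and 7.85 against 5.21 (-2.64), and HK2, the inducible hexokinase, at 9.49, 9.25, 8.90 and 9.37 against 7.27 (-2.09), whereas the constitutive HK1 differed by -0.23. ENO1 differed by -2.26 and its neuronal relative ENO2 by -0.29. GAPDH, often used as a reference gene, stood at 15.97, 15.76, 15.81 and 15.97 against 14.62 (-1.35). At the exit, LDHA, which makes lactate, stood at 13.31, 12.75, 12.46 and 13.30 against 10.13 (-3.17, 8.98-fold), LDHB differed by -1.49 and PDK1, which keeps pyruvate out of mitochondria, by -2.81. Of the phosphofructokinases PFKP differed by -1.62, PFKL by -0.14 and PFKM by 0.47. HIF1A, the hypoxia factor that drives many of these genes, stood at 11.82, 11.92, 11.71 and 11.89 against 13.21 (1.32) and was the 1 higher member. Of the 27 above the floor in both libraries 13 were lower and 1 higher, with a median of -0.95. Against siControl 13 of the list were lower and 1 higher.

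Of the 3 enzymes of serine synthesis, the middle one was lower. PSAT1, the aminotransferase, stood at 10.23, 10.37, 10.09 and 10.26 against 7.83 (-2.43), while PHGDH before it and PSPH after it differed by 0.81 and 0.91 against Nondifferentiation and by -0.12 and 0.59 against siControl. The mitochondrial folate enzymes MTHFD2 and MTHFD1L differed by -2.15 and -1.66 and the amino acid carriers SLC7A5, SLC1A5 and SLC7A1 by -2.36, -1.98 and -1.69. ATF4, the stress factor common to this group, differed by -0.51, and its targets DDIT3 and TRIB3 by 0.27 and 0.10. Of 30 measured genes of the serine, amino acid and ATF4 list 8 were lower and 1 higher, and of the 25 above the floor in both libraries 6 and 1. The letters TGATGNAA, an element that ATF4 binds, occurred on either strand in 12 of the 48 promoter windows of these genes, against 1.97% of windows of measured genes and 3.62% of all, and in 3.21% of windows of genes called higher and 2.18% of genes called lower.

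Of 34 measured genes of cholesterol synthesis and its SREBP targets 11 were lower, 2 higher and 21 neither. HMGCS1, an early step, differed by -1.01, SQLE, the epoxidase of squalene, by -1.10 and EBP, a late isomerase, by -1.34. The lipid enzymes SCD and FASN differed by -1.59 and -1.19. Against siControl HMGCS1 and FASN were under 2-fold, at -0.58 and -0.66. TM7SF2, a sterol reductase within the same pathway, stood at 8.16, 7.47, 8.62 and 8.09 against 10.95 (2.85), the opposite side from its neighbours CYP51A1 at -0.67 and MSMO1 at -0.98. Of the 30 above the floor in both libraries 10 were lower and 1 higher, and against siControl 8 of the list were lower and 2 higher, with a median of -0.54. In the short list of cholesterol export APOE stood at 6.33, 5.81, 6.73 and 7.66 against 9.64 (1.98) and NR1H3, the sterol-sensing LXR receptor, at 6.47, 6.07, 6.16 and 6.69 against 8.45, while the exporters ABCA1 and ABCG1 stood at 1.26 and 1.77. The 3 higher members of 7 were all measured only through Differentiation.

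**Figure D4:**
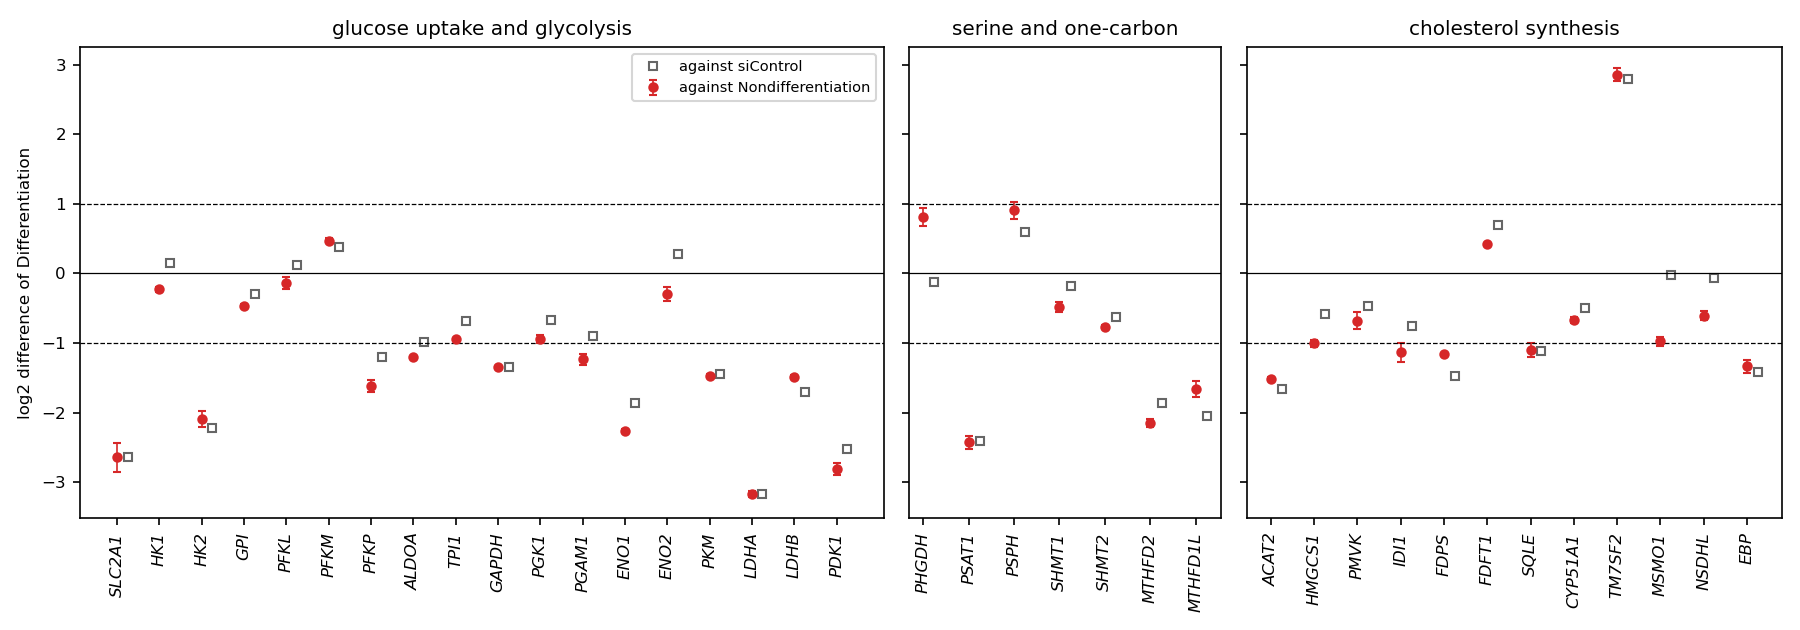
Log2 differences of Differentiation against Nondifferentiation (red, with the estimated counting SE of 1 library pair, not a replicate error) and against siControl (open squares) for measured enzymes in pathway order; dashed lines mark 2-fold. LDHA at -3.17 and PSAT1 at -2.43 are the lowest of their pathways, TM7SF2 at 2.85 is the 1 enzyme drawn above 2-fold, and PHGDH and MSMO1 differ between the references.

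Of 60 measured genes of autophagy and the lysosome 13 were higher, 1 lower and 46 neither. CTSB, a lysosomal protease, stood at 11.40, 11.50, 11.68 and 11.25 against 14.46 (3.21), and CTSF, CTSD and PSAP, further proteins of the lysosomal lumen, differed by 2.39, 1.12 and 1.51. SMPD1 and GAA, which break down sphingomyelin and glycogen, differed by 1.63 and 1.20, and ATP6V0A1, a subunit of the acidifying pump, by 1.72. TFEB, the factor that controls lysosomal genes, stood at 6.70, 7.35, 7.20 and 7.89 against 9.21 (1.31). CTSC was the 1 lower member, at -1.47. In autophagy OPTN, a cargo receptor, differed by 1.72, MAP1LC3A and GABARAPL1 of the membrane-bound ATG8 family by 1.20 and 1.12, and ATG5 by -0.52. Of the 57 above the floor in both libraries 12 were higher and 0 lower, with a median of 0.50. Above every other library lay 45 of the 60, against 41.6% of all measured genes.

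TFEB and its relatives bind a word known as the CLEAR motif, searched here as GTCACGTGA on both strands. It occurred in 9.09% of 66 windows of the measured lysosome and autophagy genes, against 1.49% of windows of measured genes and 0.840% of all. Genes called higher had it in 1.12% of windows and genes called lower in 0.785%. The promoter of GAA is shown because it holds the word at a pair of sites, marked in capitals with the overlapping copy on the other strand, on chr17:80101478-80101580, plus strand.
GAA: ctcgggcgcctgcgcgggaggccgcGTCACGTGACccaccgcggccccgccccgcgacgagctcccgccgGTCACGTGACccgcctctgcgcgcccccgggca

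Lists of stress, survival and interferon genes were unequal in how many members passed 2-fold. Of 26 measured genes of the unfolded protein response 1 was higher and 0 lower (also 1 and 0 of the 24 above the floor in both libraries), with HSPA5, the main ER chaperone, at 0.24 and XBP1 at 0.17. Of 28 measured p53 target genes 1 was higher and 4 lower, and of the 27 above the floor in both libraries 0 and 4. The lean of this list turned with the reference: its median was -0.19 against Nondifferentiation and 0.32 against siControl, where 4 were higher and 3 lower. PLK2, a kinase of stressed cells and synapses, stood at 6.58, 6.92, 7.16 and 7.22 against 10.94 (3.72), while MDM2 and BAX differed by -0.45 and -0.15. In the BCL2 family BOK, a poorly understood member, stood at 3.79, 4.66, 4.57 and 4.87 against 9.07. BCL2 differed by 0.70, PMAIP1 by -1.29 and BNIP3, which hypoxia induces, by -1.39. Of 27 measured genes of the BCL2 family and caspases 4 were higher and 2 lower. Of the 25 above the floor in both libraries 2 were higher and 2 lower. Of 13 measured interferon and MHC genes 6 were higher and 1 lower, and 4 of the 13 were measured only through Differentiation. Of the 9 above the floor in both libraries 2 were higher and 1 lower. XAF1 stood at 4.75, 4.25, 3.54 and 3.41 against 7.96 and STAT2 differed by 1.59, whereas B2M, the light chain of MHC class I, differed by 0.00.

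Further genes far apart are on none of the lists. ADD3, which caps actin under the membrane, stood at 10.12, 10.30, 10.19 and 9.89 against 13.86 (3.98), and NAV2, a cytoskeletal protein with a role in neurites, at 11.23, 11.36, 11.55 and 10.69 against 14.46 (3.77). DLG2 stood at 5.45, 0, 2.85 and 1.77 against 8.78, with siControl well above the other references. AZIN2, a regulator of polyamine synthesis, and ORAI3, a calcium channel subunit, differed by 3.45 and 3.35. All of these were above every reference library.

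On the lower side, S100A10, a partner of annexin at the membrane, stood at 8.76, 8.82, 9.08 and 10.17 against 6.17 (-3.99), with Nondifferentiation the highest of the references. ADCYAP1R1, the receptor for the neuropeptide PACAP, stood at 9.69, 10.24, 9.94 and 9.37 against 5.45 (-3.92), and MGST1, a glutathione transferase, at 11.62, 11.41, 11.43 and 11.75 against 8.61 (-3.14). The small noncoding SNAR RNAs, 17 measured symbols, were all lower with a median of -2.74, but their copies share sequence and are not 17 measurements.

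The factors of mRNA decay that the study depleted differed little in this pair, STAU1 by -0.01 and UPF1 by 0.07, and so did most of their partners. Of 30 measured decay factors 1 was higher and 2 lower, and of the 28 above the floor in both libraries 1 and 1. STAU2, the paralogue of STAU1, differed by 0.43, UPF2 by 0.09, SMG1, the kinase of UPF1, by 0.05 and SMG6, the endonuclease, by 0.93. The 2 lower genes encode the same subunit of the exon junction complex, MAGOH at 12.14, 12.01, 11.93 and 12.19 against 10.99 (-1.20) and MAGOHB at 9.31, 9.26, 9.06 and 9.09 against 7.45 (-1.64). Their near-identical coding sequences could share reads. Its partners EIF4A3, RBM8A and CASC3 differed by -0.77, -0.37 and -0.11.

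Reported targets of the pathways had medians near or below 0. Of 14 measured Staufen-mediated decay targets 2 were higher, both measured only through Differentiation, and 1 was lower. Over all measured genes 10.4% were higher and 11.0% lower. The 12 above the floor in both libraries had a median of 0.05. PPARG, a nuclear receptor of fat cells, stood at 3.46, 5.65, 4.74 and 4.67 against 8.99, and MYRF, a transcription factor of myelinating cells, at 7.796, 8.14, 8.32 and 7.77 against 8.90 (1.13). The lower one was PAICS, an enzyme of purine synthesis, at 11.63, 11.60, 11.31 and 11.75 against 9.68 (-2.07). GAP43, JUN, XBP1 and ARF1 differed by 0.51, 0.31, 0.17 and 0.27. Of 40 measured nonsense-mediated decay targets 1 was higher and 8 lower, with a median of -0.43, and of the 34 above the floor in both libraries 1 and 5. GABARAPL1 was the 1 higher member, and the lower ones include CDC25C, a phosphatase of mitotic entry, at -2.60, the snoRNA host genes SNHG1 and SNHG15 at -1.67 and -1.51, the splicing factors SRSF2 and SRSF7 at -1.13 and -1.19 and ATF3 at -1.70. GADD45A, ATF5 and DDIT3, other targets, differed by 0.55, 0.27 and 0.27.

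Most chromatin regulators differed by less than 2-fold. Of 29 measured genes of DNA methylation and Polycomb 1 was higher and 5 lower, and of the 26 above the floor in both libraries 1 and 3. DNMT3B, a de novo methyltransferase, stood at 9.94, 9.82, 9.56 and 9.54 against 7.50 (-2.04), and DNMT1 with its S phase partner UHRF1 differed by -1.07 and -2.35, while DNMT3A differed by -0.17. Within Polycomb, EZH2, SUZ12 and EED differed by -0.46, -0.63 and -0.41, PHF19 by -2.03 and JARID2 by 1.25.

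Differences also varied with the span of the gene on the chromosome, taken from RefSeq for 99.3% of measured genes. The 1785 genes under 10 kb had a median log2 difference of -0.09, the 2569 from 10 to 30 kb -0.04, the 2920 from 30 to 100 kb -0.0025, the 1357 from 100 to 300 kb 0.20 and the 300 of 300 kb or more 0.38. Among the longest class 22.7% were higher and 7.67% lower, against 11.2% and 13.2% of the shortest. In the longest class are DLG2, a scaffold protein of synapses with a span of 2173 kb, NAV2 with 776 kb and ROR1 with 407 kb, all higher. It also holds lower genes, such as NRG1 with 1135 kb and SEMA3A with 537 kb, which differed by -1.49 and -2.15 against Nondifferentiation and by -0.43 and -1.81 against siControl. ROBO2, with 1743 kb, is there too, at 1.10 and -0.062. Against siControl the medians of the shortest and the longest class were -0.07 and 0.36, and between siControl and Nondifferentiation they were -0.03 and 0.05. What moves with the span was not tested.

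**Figure D5:**
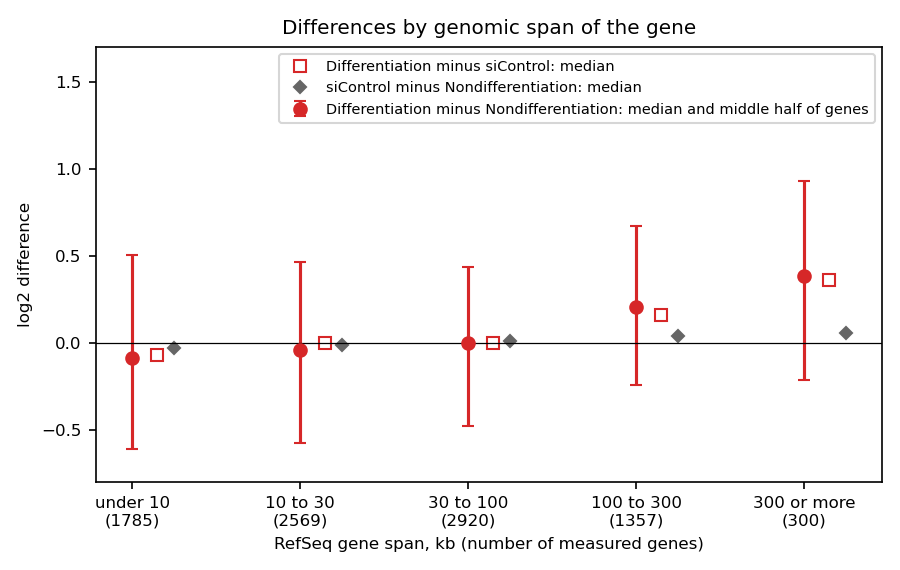
Median log2 difference (vertical axis) of measured genes in 5 classes of RefSeq gene span (horizontal axis, kb, with the number of genes), with bars from the lower to the upper quartile, beside the medians against siControl and of siControl against Nondifferentiation. The median passes from -0.09 in the shortest class to 0.38 in the longest, while the medians of siControl against Nondifferentiation stay between -0.03 and 0.05.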

How the data were processed

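Per the labels' protocols, 1 library was made for each of 5 groups with a kit that primes from poly(A) tails. The submitters' processing notes name Bowtie2, edgeR and the genome build hg19, and the authors deposited a log2 value per gene symbol. The sources used here name no counting tool, annotation or strand setting. The deposited log2 values share 1 distribution: the highest is 18.01 in all 5 libraries and the upper quartiles lie between 8.63 and 8.64, so a change of total RNA cannot be seen. All linear values above 0 are multiples of 1/5 within 0.001. Between 9583 and 9932 of 26364 symbols are at 0, and 478 are below 0 in Differentiation alone.

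With Python 3.11.15, numpy 2.4.6 and pandas 2.3.3, the log2 value in Nondifferentiation was subtracted from that in Differentiation for genes with the larger value at or above 7.8. No test was possible with 1 library per group. Read numbers came from the order of the low values, up to 400 reads, and extend to higher genes by the slope from 200 reads. Counting errors cover the sampling of reads and no spread between cultures, and PCR copies are not separate molecules. On simulated data with 26364 genes, 99 of 100 genes set 3-fold apart were called, and 0 of 100 set 1.5-fold apart. Of 8139 genes with no difference 0 were called. The simulated libraries varied by the sampling of reads only. They check the arithmetic and cannot tell how many calls in the real pair come from differences between cultures.

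The genes named are STAU1 and UPF1, the 25 highest and 25 lowest differences among genes with the smaller value at or above 5, the 15 highest genes at or under 2 in the other library on each side, and, of 60 lists, the 5 highest and 5 lowest members, every member of lists of up to 25 genes and members at other steps of the same pathway. From these the text describes a selection. The lists and members were chosen with earlier results of these data known. Promoter windows from RefSeq (GRCh38.p14) matched 7404 of the 8996 genes (82.3%) by symbol. Alternatives were another reference library, the mean of the other 4, other floors, other fold thresholds, an added constant of 16, centring and estimated reads.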

Additional observations from a re-analysis of the deposited data

How the results depend on the processing

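The counts of 937 higher and 986 lower genes stayed within 1.5 times under other references, floors of 6.8 and 8.8, a floor on the mean, an added constant, centring and estimated reads. They moved to 2828 and 3444 with no floor, to 1962 and 1961 at 1.5-fold and to 211 and 247 at 4-fold. With siControl as the reference 1045 genes were higher and 1107 lower, of which 754 and 846 were also called against Nondifferentiation. Of the genes named, GCH1 turned from lower to 0.13, ROBO2 from higher to -0.062 and IGFBP3 from higher to -0.90 with siControl as the reference, and IGFBP3 stood at -0.94 against the mean of the other 4 libraries. Of 243 named genes called against Nondifferentiation and measured against siControl, 22 were under 2-fold there. The medians of 7 of 59 lists had another sign with siControl as the reference, among them the p53 targets at 0.32 and the mesenchymal markers at 0.14. The cause was not tested. No paired analysis was possible because each group is 1 library. For the same reason no library could be left out. Depth leaves a counting error of about 0.12 for genes near the floor in both libraries. That error is larger for genes low in 1 library, such as 0.26 for ROR1. A gene listed at 0 has an unknown level below a few reads.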
